A study of Mus musculus with 8 samples.

Results

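Neural tube that had just closed was compared with neural tube still open in front of it, in all 8 libraries of the series, with gene expression counted as short sequence tags. The tissue came from FVB mouse embryos at day 8.5 of gestation and was cut from cryosections by laser microdissection. Open tissue lay directly anterior to closure site 1 and closed tissue directly posterior to it. The 4 groups were open tissue from normal dams (libraries 9 and 10), closed tissue from normal dams (libraries 11 and 12), open tissue from diabetic dams (libraries 13 and 14) and closed tissue from diabetic dams (libraries 15 and 16). All embryos shared strain and stage. The number of embryos or litters in a library, the cause of the dams' diabetes, and whether both regions were cut from the same embryos are not stated in the labels. The p-values therefore measure only the spread between these libraries, which may be in part technical. Closed tissue was also always the more posterior tissue, so closure and axial level cannot be told apart. Of 26608 genes listed, 15162 were counted in 1 library or more, and 11779 passed the filter on low counts and were tested.

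As background, the mouse neural tube forms when the neural folds bend up, meet at the dorsal midline and fuse. Closure site 1 lies at the boundary of hindbrain and spinal cord, and closure runs from there in both directions. The fold tips are built by dorsal neural cells and the surface ectoderm that covers them, and neural crest cells arise at this border. Sonic hedgehog from the notochord and floor plate patterns the ventral side, while BMP and Wnt signals pattern the dorsal side.

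Depth ranged from 5041586 to 7167172 counts in closed libraries and from 5668054 to 16655583 in open ones. A closed library had a count for 11006 to 12924 genes and an open library for 9920 to 11557, although 3 of the 4 open libraries had more counts than any closed one. For the labelled tissue, 13 of the 14 neural progenitor genes passed the filter, with a summed level of 4378 to 5840.2 CPM (counts scaled to a common total, on library sizes set by edgeR's trimmed-mean method) in closed and 4427 to 5699.6 CPM in open libraries. None of the 14 forebrain and midbrain genes passed the filter, and 11 of them, the head gene Otx2 included, had no count in any library. Library 13 stood apart: Sox2, a factor of neural progenitors, was at 30.2 CPM there and at 277 to 559.9 CPM elsewhere, and mesodermal and vascular genes were high. The neural progenitor sum of library 13 was still 4427 CPM, so that sum does not follow Sox2, and other members make up most of it. Xist, expressed from the inactive X of females, stood at 289 CPM in library 10 and 305 CPM in library 12, against at most 4.36 CPM elsewhere. These are 1 open and 1 closed library, both of normal dams, and both had Ddx3y, a gene of the Y chromosome, below 1 CPM. Ddx3y stood at 192 to 279 CPM in the other libraries, which include all those of diabetic dams. In normal dams the libraries of each group thus differed in sex and so in embryos. Sex was even over region but not over dam, and its part in differences between dams was not tested.

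The tags behind the genes that lead the comparison show what was counted. The kit reads a tag that starts at a CATG, the cut site of the enzyme NlaIII, nearest to the 3′ end of a transcript. The predicted tags below are the last CATG (capitals) with the next 21 bases (lower case) of the longest protein-coding transcript of each gene in GENCODE M21, 5′ to 3′. They are predictions from the annotation on build GRCm38, not sequences read in these libraries, whose counts rest on another build.
Gli1: CATGaggtgcccagggatgggaggt
Msx1: CATGctggtgcttcaccaaggtagg
Sox9: CATGcctctgcaagtgtgtgtgccg
Cdh1: CATGtaatgttgctagagtgacctt
Tnfrsf19: CATGtgttttcgattttgaatatat
Sema3a: CATGtattcagttgctaaatacaca
Ankrd6: CATGgaacttgtgtctcctatatgc
Dlk1: CATGtgcccccaggaagccaagcac
Each of these 8 tags lies in the 3′ UTR, within a single exon, and occurs after a CATG in no other gene's transcripts. The Gli1 tag is at chr10:127329979-127330003 on the minus strand and the Msx1 tag at chr5:37820705-37820729 on the minus strand. The Sox9 tag is at chr11:112787275-112787299 on the plus strand and the Cdh1 tag at chr8:106670089-106670113 on the plus strand. The Tnfrsf19 tag is at chr14:60964094-60964118 on the minus strand and the Sema3a tag at chr5:13602528-13602552 on the plus strand. The Ankrd6 tag is at chr4:32804056-32804080 on the minus strand and the Dlk1 tag at chr12:109462792-109462816 on the plus strand. Transcripts of a gene with another 3′ end have another last tag: the Sox9 tag is that of the only annotated transcript, whereas the Ankrd6 tag is the last one in 4 of 8 transcripts. For the others it is the last one in 1 of 2 transcripts (Msx1), 1 of 3 (Cdh1) and 3 of 10 (Dlk1). For Gli1 and Tnfrsf19 it is the last in 1 of 5 each, and for Sema3a in 1 of 9. A count therefore depends on 1 site per transcript and not on transcript length.

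The tools differed in whether any gene separated closed from open tissue. Under edgeR's quasi-likelihood test with dam as covariate, 0 of 11779 genes (0.0%) passed a Benjamini-Hochberg adjusted p of 0.05, the lowest value being 1.00. Without adjustment, 391 genes had a p below 0.05 (3.32%), 272 higher in closed tissue (2.31%) and 119 lower (1.01%). DESeq2 called 9 genes (0.0764%), and limma-voom called 0, although 616 genes had an unadjusted p below 0.05 with it. Without the filter on low counts edgeR called 29 genes, and with 1 library left out 0 to 3. The DESeq2 calls were Msx1, Tcfap2a, Sema3a, Tnfrsf19, Ldhb, Tmem86b, LOC100505012 and LOC100502877, all higher in closed tissue, and Dlk1, which was lower. Tmem86b had a mean below 10 CPM, and is named for this call alone. In simulated counts DESeq2 made 55 false calls against 4 by edgeR. Those counts were drawn with edgeR's own estimate of each gene's spread and without a dam difference. They therefore do not show which of the 9 calls are false. The biological coefficient of variation between libraries was 0.894 and the median standard error of a log2 fold change was 0.67. Below, "higher" and "lower" compare levels and stand for no passed edgeR test.

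Libraries can also be compared without a model. In 329 genes (2.79%) the regions did not overlap: in 223 (1.89%) all 4 closed libraries lay above all 4 open ones, and in 106 (0.9%) all 4 lay below. Among the 6941 genes with a mean of at least 10 CPM the counts were 100 (1.44%) and 82 (1.18%). Zeros moved with the higher side, and their part in it was not tested: 106 of the 223 genes had an open library at 0, and 31.5% of all tested genes did, against 19.6% with a closed library at 0. Fold changes were positive for 55.5% of the genes tested, and their median on the log2 scale was 0.07.

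**Figure D1:**
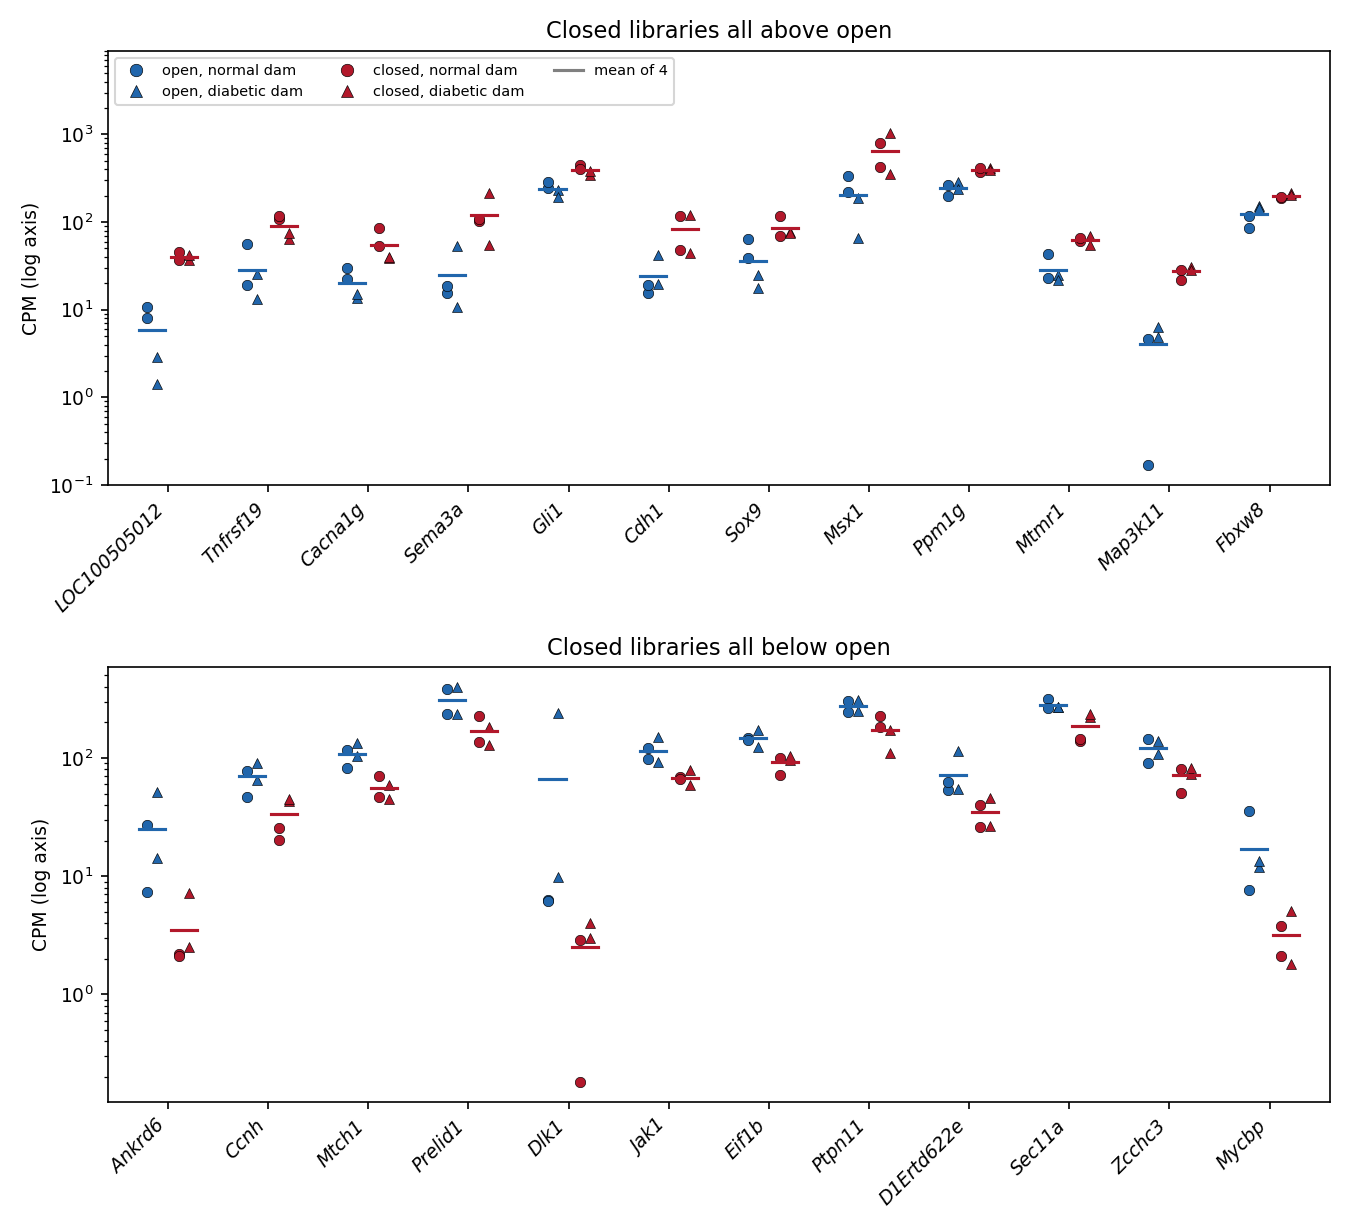
Levels in CPM (log axis) of the 12 genes in each direction with the smallest edgeR p among genes with a mean of at least 10 CPM and no overlap between regions. Points are single libraries (circles normal dams, triangles diabetic dams, blue open, red closed) and bars are means of 4; Gli1 spans 193 to 283 CPM in open and 341 to 446 CPM in closed libraries.

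Dorsal neural tube and neural crest genes stood higher in closed tissue more often than not. Of 21 tested members (26 listed), 17 were positive; the median log2 fold change was 1.14, against 0.07 for all genes. It was 0.85 in normal and 1.63 in diabetic dams. The summed level was 993, 744, 359 and 359 CPM in open libraries 9, 10, 13 and 14, and 1471, 1009.9, 1519.6 and 945 CPM in closed libraries 11, 12, 15 and 16; values below keep this order. The libraries overlapped only in that open library 9 lay above closed library 16. Msx1 alone gave 335, 219, 186 and 66.6 CPM of the open sums and 807, 425, 1032 and 353 CPM of the closed ones. The near-separation of the sums therefore leans on that gene. At an unadjusted edgeR p below 0.05, 5 members were higher (2.31% of all genes were) and 0 lower, and in 4 members every closed library lay above every open one (1.89% of all genes). Without library 13, 19 of 21 were positive with a median of 1.14. In bulk tissue, fewer cells of a type and less RNA per cell cannot be told apart.

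Msx1, a homeobox factor of the dorsal midline that BMP signals induce, was counted at 335, 219, 186 and 66.6 CPM in open tissue. Closed tissue had 807, 425, 1032 and 353 CPM. The regions did not overlap, although closed library 16 exceeded open library 9 only narrowly. Its mean was 654 ± 321 CPM for closed and 202 ± 111 CPM for open libraries (± SD, n = 4 in each region), a log2 fold change of 1.80 (SE 0.46, edgeR adjusted p = 1.00, DESeq2 adjusted p = 0.0163). Sox9, a factor of early neural crest, stood at 38.7, 64.7, 17.6 and 24.7 CPM in open tissue. It reached 117, 69.3, 77.1 and 75.2 CPM in closed tissue. All closed values exceeded all open ones, the closest being 69.3 and 64.7 CPM, both in normal dams. The log2 fold change was 1.35 (SE 0.34).

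Tcfap2a, which encodes the AP-2 alpha factor of neural crest and surface ectoderm, was nearly absent from open tissue of diabetic dams. It had 13.2, 6.62, 0.177 and 0 CPM in open and 41.8, 24.9, 26.6 and 11.5 CPM in closed libraries, and closed library 16 fell between the open values. DESeq2 called it (adjusted p = 0.0471). Foxd3, an early neural crest factor, had no count in any open library and 1.27, 3.80, 1.41 and 1.82 CPM in the closed ones, at least 29.6-fold higher against a floor of 3 counts over the open group. Foxd3 was chosen after its values were seen. Zic2, a factor whose mouse mutants fail to close the neural tube, stood at 26.4, 34.99, 13.3 and 28.3 CPM in open and 45.95, 72.5, 29.7 and 44.05 CPM in closed tissue. It was lowest in library 13 and overlapped between regions. Pax3, the dorsal factor mutated in the splotch mouse, had 57.6, 108, 7.59 and 34.2 CPM in open and 76.5, 101, 139 and 50.6 CPM in closed tissue. Its difference was 0.10 on the log2 scale in normal and 2.19 in diabetic dams, and without library 13 it was 0.60 overall. Wnt3a, a signal of the dorsal midline and tail bud, had 1.71, 6.79, 0 and 0 CPM in open and 6.72, 7.14, 3.63 and 1.12 CPM in closed tissue.

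Dorsal signals and their targets showed smaller differences. Id3, an inhibitor of helix-loop-helix factors that BMP signalling induces, stood at 948, 819, 566 and 409 CPM in open and 1214, 753, 1247 and 785 CPM in closed tissue, with overlap (log2 fold change 0.61, SE 0.26). In the BMP list, 9 of 16 tested genes were positive (median 0.07). Axin2, a feedback inhibitor of Wnt signalling, had 167, 60.5, 64.1 and 87.6 CPM in open and 161, 148, 143 and 109.6 CPM in closed tissue. Fzd10, a Wnt receptor of the dorsal neural tube, had 116, 135, 47.5 and 69.1 CPM (open) and 127, 125, 207 and 112 CPM (closed), and its low values were the open libraries of diabetic dams. Over the Wnt list, 20 of 34 tested members were positive, close to the share among all genes. In RefSeq promoters (GRCm38, 250 bases before to 50 after the start), the TCF motif CTTTGAT was sought on either strand. It occurred in 2 of 25 Wnt list members, Sp5 and Wnt5b, where a member counted if any of its promoters held it. Among 32851 single promoters the share was 3.73%, which is a share of promoters and not of genes.

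Surface ectoderm genes were also mostly higher in closed tissue, but library 13 shared their high level. Of 17 tested members, 14 were positive, with a median of 1.26. Summed levels were 111, 132, 401 and 93.03 CPM in open and 391, 193, 409.7 and 155 CPM in closed libraries. Open library 13 thus matched the 2 highest closed libraries, 11 and 15, while the other open libraries lay below every closed one. Without library 13, 15 of 17 were positive with a median of 2.16. Without library 15 the median was 0.52 (14 of 19).

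Cdh1, the E-cadherin of epithelia, stood at 15.6, 19.4, 42.5 and 19.7 CPM in open and 117, 47.6, 121 and 44.2 CPM in closed tissue. The closed libraries fell into a high and a low pair, each with 1 library of each dam, and the lowest of them lay just above open library 13. Its log2 fold change was 1.82 (SE 0.45, edgeR adjusted p = 1.00). Ovol2, an epithelial zinc finger factor, had no count in open tissue and 0, 3.19, 1.61 and 3.92 CPM in closed tissue, at least 32.5-fold higher over the group. Perp, a desmosome component, had 0, 0, 4.001 and 0.117 CPM in open and 6.36, 3.50, 10.1 and 4.75 CPM in closed tissue, with library 13 the highest open one. Grhl3, a surface ectoderm factor required for closure of the posterior neural tube, did not follow: it stood at 6.74, 4.76, 3.94 and 5.76 CPM in open and 2.72, 5.02, 3.63 and 6.15 CPM in closed tissue. Its log2 fold change was -0.28 with an SE of 0.99, so a difference of this size is not detectable with this error.

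**Figure D2:**
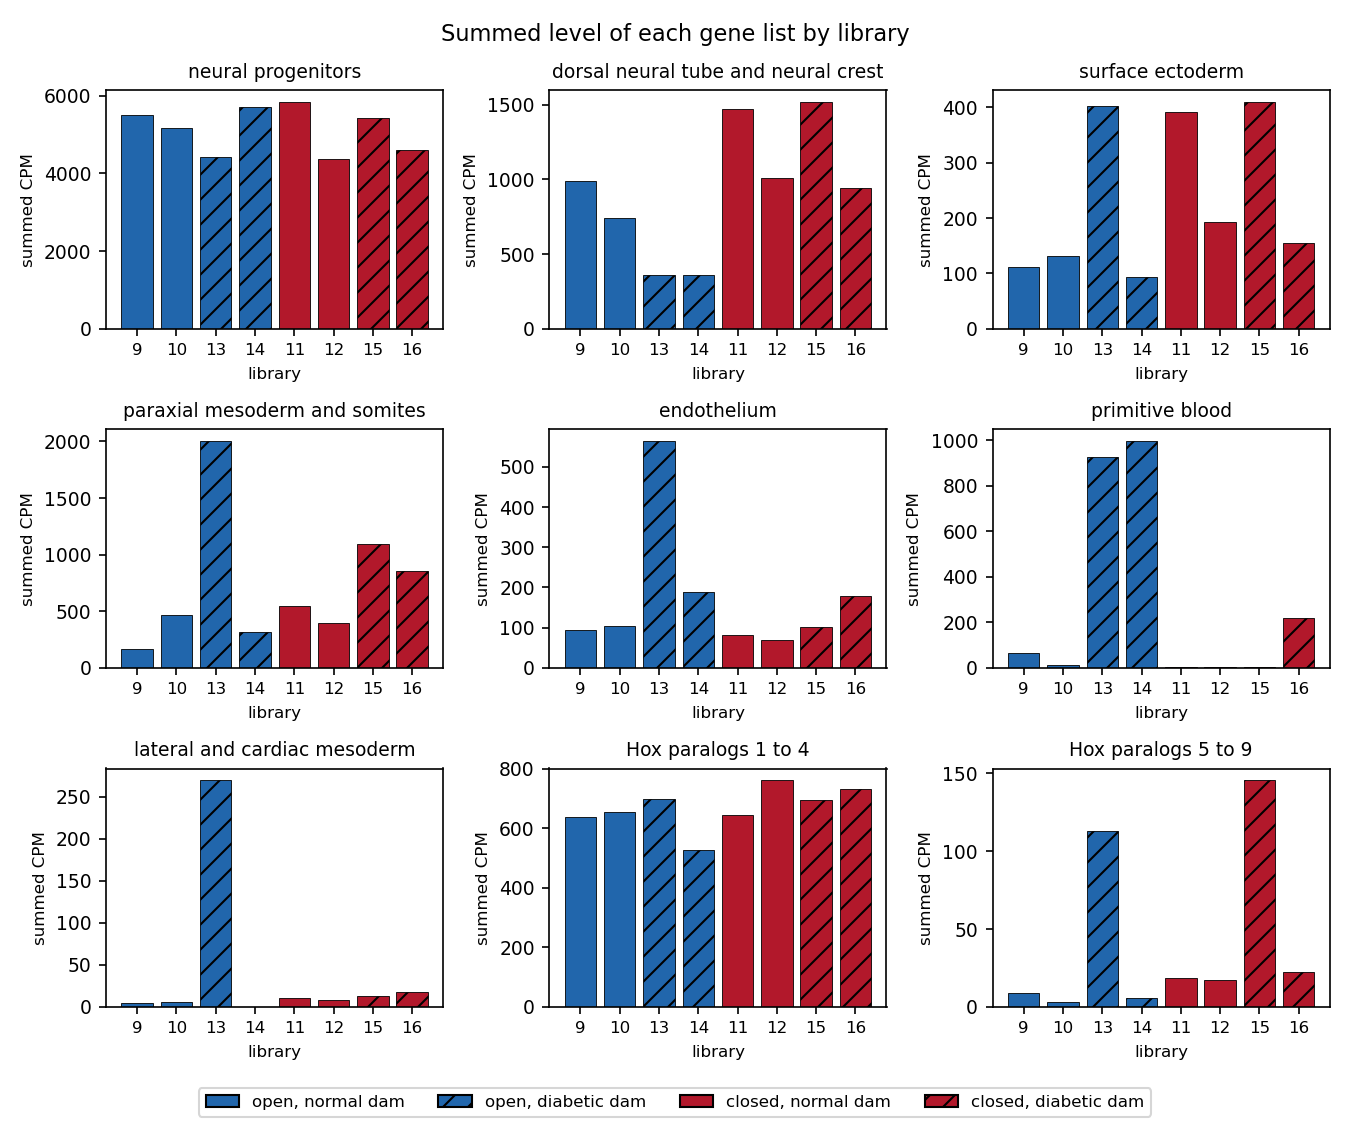
Summed level in CPM (linear axis from 0) of all listed members of 9 gene lists in each library; blue bars are open, red closed, and hatched bars diabetic dams. Dorsal genes sum to 945 to 1520 CPM in closed and 359 to 993 CPM in open libraries, whereas mesodermal and vascular sums are highest in library 13. Msx1 alone makes up 353 to 1032 CPM of the closed and 66.6 to 335 CPM of the open dorsal sums.

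Hedgehog pathway genes were uneven, and Gli1 was the only tested member without overlap between regions. Gli1, a transcription factor that Hedgehog signalling switches on and a common readout of it, stood at 247, 283, 231 and 193 CPM in open tissue. Every closed library lay higher, at 446, 399.9, 341 and 385 CPM. The means were 393 ± 43.4 CPM (closed) and 239 ± 37.3 CPM (open; SD, n = 4 per region), a log2 fold change of 0.72 (SE 0.17, unadjusted p = 0.00122 and adjusted p = 1.00 by edgeR). It was 0.67 within normal and 0.77 within diabetic dams, and leaving out any 1 library gave 0.66 to 0.78. Gli1 had the smallest standard error of the 12 leading genes on the higher side.

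The other members of the pathway overlapped between regions. Smo, the signal transducer, had 193, 178, 222 and 157 CPM in open and 215, 275, 195 and 223 CPM in closed tissue. Cdon, a co-receptor, had 79.2, 101, 127 and 109 CPM (open) and 169, 166, 78.5 and 129 CPM (closed): closed lay above open tissue in normal dams, and the regions overlapped in diabetic dams. Shh, the ligand, was at 0, 11.6, 0 and 4.46 CPM in open and 8.54, 5.17, 1.82 and 2.94 CPM in closed tissue, so its level was low and uneven in both. Ptch1, the receptor and another target, was at most 8.48 CPM in any library and was chosen after its values were seen. In all, 12 of 16 tested members were positive, with a median of 0.25. Foxa2, a factor of floor plate and notochord, stood at 12.4, 14.1, 7.53 and 16.3 CPM in open and 12.4, 20.1, 22.6 and 23.9 CPM in closed tissue, with overlap. Of the 18 list members, 14 had a RefSeq promoter, and the GLI motif GACCACCCA on either strand was in 0 of them and in 0.253% of all promoters. The absence says only that these letters are not in those windows.

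Several genes outside the lists led the higher side. Tnfrsf19, a receptor of the tumour necrosis factor family, stood at 55.5, 19.2, 25.2 and 13.3 CPM in open and 107, 117, 64.8 and 74.7 CPM in closed tissue, without overlap. Its log2 fold change was 1.72 (SE 0.37, DESeq2 adjusted p = 0.0361). Sema3a, a secreted semaphorin that repels growing axons and neural crest cells, had 15.6, 18.5, 53.6 and 10.7 CPM in open and 103, 109, 216 and 55.2 CPM in closed tissue. Closed library 16 exceeded open library 13 by little, while the other libraries lay far apart. The log2 fold change was 2.35 (SE 0.53), and without library 16 edgeR called it (adjusted p = 0.0123).

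Cacna1g, which encodes a T-type calcium channel, had 29.8, 22.6, 13.7 and 15.04 CPM in open and 53.4, 85.9, 38.9 and 39.6 CPM in closed tissue. Its difference was of like size in both dams, 1.41 and 1.45 on the log2 scale. Map3k11, a kinase of the JNK pathway, stood at 4.63, 0.170, 4.94 and 6.34 CPM in open and 21.6, 28.3, 30.9 and 28.5 CPM in closed tissue, a wide gap at low level. Ppm1g, a protein phosphatase, had 264, 197, 288 and 237 CPM (open) and 369.97, 409, 409 and 393 CPM (closed), and Fbxw8, a part of ubiquitin ligases, 116, 85.4, 153 and 146 CPM (open) and 188, 192, 214 and 204 CPM (closed). Both closed groups were tight, and the differences were 0.68 and 0.70 on the log2 scale. Mtmr1, a lipid phosphatase of the myotubularin family, stood at 43.5, 23.3, 25.1 and 21.6 CPM in open and 60.1, 65.4, 54.7 and 68.5 CPM in closed tissue.

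Some higher genes were chiefly a matter of presence. Trex1, a DNA exonuclease, had 0, 0, 6.24 and 0 CPM in open and 20.9, 17.8, 29.1 and 9.79 CPM in closed tissue. Hdhd3 was at 10.5, 0.170, 10.003 and 0 CPM and Tmem60 at 20.2, 0, 15.5 and 0 CPM in open tissue, where libraries 10 and 14 were near or at 0, against 14.3 to 20.5 and 26.2 to 35.1 CPM in closed tissue. Ldhb, a lactate dehydrogenase subunit, had no count in any of the 4 open libraries and 10.9, 11.1, 4.64 and 4.06 CPM in the closed ones, at least 105-fold higher over the group (DESeq2 adjusted p = 0.000969). LOC100505012 stood at 10.8, 8.15, 2.88 and 1.41 CPM in open and 36.7, 45.4, 36.5 and 42.1 CPM in closed tissue. LOC100502877, a ribosomal protein pseudogene by its RefSeq record and so uncertain, was at 238, 27.96, 199.99 and 25.2 CPM in closed tissue, and its excess over the open 12.1 to 36.8 CPM came from libraries 11 and 15. Tag counting reports many genes at 0 in 1 library and at over 10 CPM in another, and whether a zero is absence or a lost tag was not tested.

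On the side lower in closed tissue, Ankrd6, the diversin that shifts Wnt signalling toward the planar polarity branch, stood at 27.2, 7.30, 14.2 and 51.4 CPM in open and 2.18, 2.13, 7.27 and 2.52 CPM in closed tissue. The closest values were 7.30 and 7.27 CPM, so the groups barely separated. Its log2 fold change was -2.87 (SE 0.72, edgeR unadjusted p = 0.0022). Ccnh, the cyclin of the CDK-activating kinase, had 46.7, 77.6, 65.7 and 91.2 CPM in open and 20.3, 25.5, 43.6 and 44.7 CPM in closed tissue. Mtch1 and Prelid1, both mitochondrial proteins, had log2 fold changes of -0.97 (SE 0.26) and -0.89 (SE 0.27). Mtch1 stood at 82.6 to 134 CPM in open and 45.4 to 70.5 CPM in closed tissue.

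Jak1, a kinase of cytokine receptors, and Ptpn11, the phosphatase Shp2 that carries receptor tyrosine kinase signals, lay below open tissue in all 4 closed libraries. Jak1 had 97.2, 120.4, 149.99 and 91.6 CPM in open and 68.7, 65.8, 59.1 and 78.4 CPM in closed tissue. Ptpn11 had 245, 305, 251 and 309 CPM (open) and 228, 183, 111 and 174 CPM (closed), and its difference was -0.42 in normal and -0.98 in diabetic dams. Eif1b, a translation initiation factor, and Sec11a, a signal peptidase subunit, differed by -0.66 and -0.63 on the log2 scale. Zcchc3 stood at 90.2 to 145 CPM in open and 50.9 to 83.1 CPM in closed tissue, and D1Ertd622e at 53.8 to 116 and 26.3 to 45.6 CPM. The lower, less abundant genes were Mycbp (7.64 to 35.5 CPM open, 1.82 to 5.05 CPM closed), Btf3l4 (14.8 to 29.5 and 5.78 to 14.3 CPM), Tceal5 (12.3 to 24.1 and 3.78 to 8.48 CPM) and Usp16 (18.5 to 43.5 and 8.35 to 12.1 CPM).

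Genes of axial level showed little shift among the anterior Hox genes. Hox genes are expressed in nested domains along the body, with higher paralog numbers toward the tail. Of 10 tested genes of paralog groups 1 to 4, 5 were positive and the median was 0.08. Their summed level was 646 to 763 CPM in closed and 526 to 697 CPM in open libraries, close to each other. Hoxb4 stood at 48.5, 34.5, 102 and 10.9 CPM in open and 114, 81.004, 91.2 and 79.3 CPM in closed tissue, and the open values spread the more widely. Hoxa4 went the other way, with 6.94, 7.30, 23.7 and 16.1 CPM in open and 1.45, 0.608, 8.88 and 6.71 CPM in closed tissue (log2 fold change -2.04, SE 0.78).

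Of 6 tested genes of paralog groups 5 to 9, all were positive, with a median of 1.30, but their levels were low. The median moved when single libraries were left out and the filter was applied anew. The sum was 9.15, 2.89, 113 and 5.87 CPM in open and 18.7, 17.2, 146 and 22.5 CPM in closed libraries, high in closed library 15 and open library 13. Hoxb8 had 0.402, 0.170, 0.353 and 0.352 CPM in open and 0.545, 1.82, 33.5 and 0.979 CPM in closed tissue. Hoxb9 had 0.704, 0.849, 0.235 and 0.352 CPM (open) and 0.363, 0.760, 62.96 and 1.68 CPM (closed). Outside library 15 both stood below 2 CPM, and without that library 5 of 7 members were positive (median 0.69). The median was 0.08 without library 14, 0.31 without 9, 0.32 (4 of 7 positive) without 12 and 0.43 (4 of 7) without 10. It was 0.59 without 11, 0.98 without 16 and 2.42 without 13. The filter kept 7 members each time, except without library 13, where the same 6 remained. How far the added member moved these medians was not tested.

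**Figure D3:**
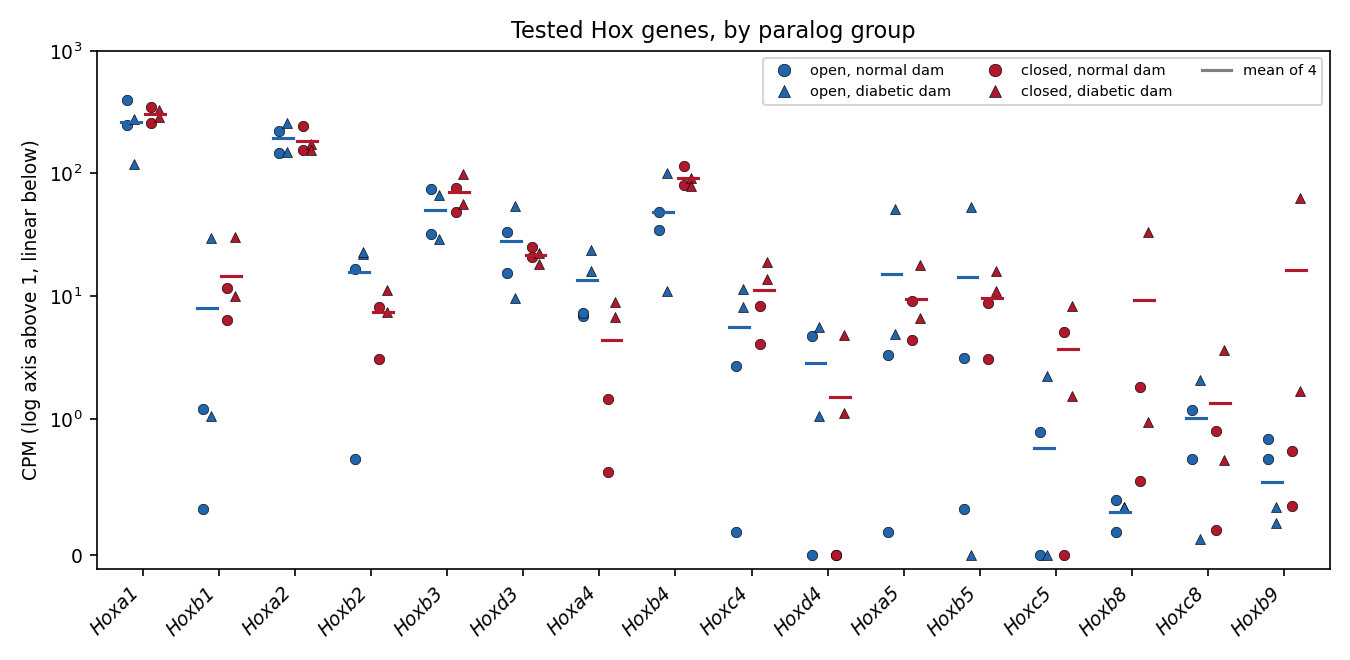
CPM of the 16 tested Hox genes by library (log axis above 1 CPM, linear below), ordered by paralog group; bars are means of 4. Groups 1 to 4 overlap between regions, and Hoxb8 and Hoxb9 are high only in closed library 15, at 33.5 and 63.0 CPM.

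Caudal progenitor genes were positive in 6 of 7 tested members (16 listed), with a median of 1.38 at low level. Cdx1, a caudal homeobox factor, stood at 2.31, 20.7, 9.003 and 3.29 CPM in open and 17.8, 20.97, 45.2 and 4.61 CPM in closed tissue. T (brachyury), a factor of notochord and primitive streak, had 0.302, 16.3, 0.294 and 6.23 CPM (open) and 23.2, 12.3, 14.9 and 11.3 CPM (closed), below 1 CPM in open libraries 9 and 13. Cdx2 was at most 9.28 CPM in any library. Of 11 tested hindbrain genes, 9 were negative, with a median of -0.45, and 0 had an unadjusted edgeR p below 0.05. Epha4, a guidance receptor that marks hindbrain segments, had 7.64, 6.12, 28.6 and 23.1 CPM in open and 2.91, 7.90, 8.68 and 6.43 CPM in closed tissue, and without library 13 the list was positive in 1 of 11 with a median of -0.18.

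The FGF list was divided, with 5 of 12 tested members positive and a median of -0.13. Etv5, an ETS factor induced by FGF signalling, stood at 24.2, 45.7, 12.4 and 112 CPM in open and 10.4, 0.152, 13.7 and 4.06 CPM in closed tissue. Il17rd, the feedback inhibitor Sef, had 7.24, 1.53, 10.2 and 110.2 CPM (open) and 0.363, 0.912, 23.6 and 13.004 CPM (closed), with library 14 far above the rest. The log2 fold changes were -2.78 (SE 0.95) and -2.16 (SE 0.80), and both genes overlapped between regions. Crabp1, which binds retinoic acid in the cytoplasm, stood at 9654, 5887, 1107 and 16617 CPM in open and 5426, 2921, 1283 and 4885 CPM in closed tissue. It was among the most abundant genes of these libraries and lowest in libraries 13 and 15; without library 14 its log2 fold change was closer to 0 than under any other omission, at -0.07. Dbx1, a factor of the interneuron zone, had 236, 48.1, 2.18 and 225 CPM in open and 54.1, 6.08, 1.21 and 43.3 CPM in closed tissue, again low in 13 and 15.

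Mesodermal genes depended on library 13. Among 18 tested genes of paraxial mesoderm and somites, 14 were positive with a median of 0.62, and without library 13 all 18 of 18 were, with a median of 1.42. The summed level was 166, 469, 2006 and 314 CPM in open and 546, 398, 1094 and 854 CPM in closed libraries. Pax1, a factor of the ventral somite, stood at 8.45, 0.170, 242 and 13.5 CPM in open and 71.4, 31.5, 68.6 and 126 CPM in closed tissue. Pdgfra, a receptor of mesenchyme, had 30.5, 31.1, 466 and 64.96 CPM (open) and 90.4, 55.5, 149 and 159 CPM (closed): without library 13 its log2 fold change was 1.24, with it 0.22. Pax9 had no count in open tissue and 0 or at most 3.50 CPM in closed tissue. Library 13 had the highest paraxial sum of all libraries. Its dorsal sum was as low as that of library 14, whose paraxial sum was not high.

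Heart and lateral mesoderm genes were close to 0 except in library 13. Gata4, a factor of heart and endoderm, stood at 0.101, 0.170, 85.97 and 0 CPM in open and 0, 0, 4.44 and 0.559 CPM in closed tissue, and Gata6 at 0.804, 0.170, 54.3 and 0 CPM (open) and 0, 0, 3.63 and 1.68 CPM (closed). The median of the 5 tested members was -1.89, and without library 13 it was -0.37 over the 4 that could be fitted. Another 6, Nkx2-5 and Tnnt2 among them, had no count in any library.

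Endothelial and blood genes were mostly lower in closed tissue. Of 15 tested endothelial genes, 11 were negative with a median of -0.999; the medians were -0.34 in normal and -1.31 in diabetic dams. Tek, the angiopoietin receptor of endothelium, stood at 2.61, 0, 104 and 29.6 CPM in open and 0, 0.152, 3.43 and 14.1 CPM in closed tissue. Egfl7, a secreted endothelial protein, had 50.8, 46.9, 140.1 and 87.6 CPM (open) and 37.6, 26.6, 47.8 and 56.2 CPM (closed), and closed library 16 lay above the open libraries of normal dams. Sox7 had 20.2, 28.5, 139 and 30.9 CPM (open) and 15.4, 20.4, 5.45 and 35.1 CPM (closed). Without library 13, 6 of 15 members were positive with a median of -0.52. Without library 11 the filter, applied anew, kept 18 members, and their median was -1.77. Other omissions that kept 18 gave -1.28 to -0.98. All 6 tested genes of primitive blood were negative, with a median of -1.43. Without library 13, 2 of 6 were positive (median -1.35). Without library 16 the filter, applied anew, kept 9 members, and their median was -3.51. Other omissions that kept 9 gave -2.35 to -1.13. Hba-x, the embryonic alpha-like globin, stood at 62.7, 1.02, 874 and 978 CPM in open and 0.363, 0.304, 4.44 and 204 CPM in closed tissue. Its ranges overlapped widely, with both open libraries of diabetic dams highest. The summed blood level was 64.96, 10.7, 928 and 998 CPM in open and 4.36, 2.89, 5.45 and 218 CPM in closed libraries, and its part in the other differences was not tested. Without library 16 edgeR called Hba-x (log2 fold change -7.31, adjusted p = 0.000524).

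Genes that build or steer closure were near the background as lists. Of 63 tested genes whose mouse mutants have closure defects, 38 were positive, near the share among all genes, with a median of 0.06. At an unadjusted edgeR p below 0.05, 2 were higher and 0 lower, against 2.31% and 1.01% of all genes. Of 20 tested genes of planar cell polarity, the pathway that narrows and lengthens the neural plate, 11 were positive with a median of 0.04. Ankrd6, described above, was the only one of them without overlap between regions and the only one with an unadjusted edgeR p below 0.05. Vangl2, its core membrane protein, stood at 6.54, 28.5, 9.53 and 7.64 CPM in open and 10.4, 18.7, 13.7 and 8.95 CPM in closed tissue. The log2 fold change was 0.06 (SE 0.64), and its sign changed under 5 alternatives. Prickle1, another core component, had 10.6, 15.3, 55.8 and 17.4 CPM (open) and 25.1, 48.02, 83.8 and 29.9 CPM (closed), and without library 13 its log2 fold change moved from 1.06 to 1.57. Celsr2, a cadherin of the same system, had 50.6, 13.8, 0.0588 and 3.05 CPM (open) and 27.97, 43.6, 22.4 and 38.2 CPM (closed), with the low values in open tissue of diabetic dams. Of 30 tested genes of actomyosin and apical constriction, 16 were positive with a median of 0.03.

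Cell junction genes were positive in 13 of 20 tested members, with a median of 0.21. Nphp4, of the transition zone of the primary cilium, had 21.7, 31.4, 7.88 and 8.93 CPM (open) and 53.6, 48.2, 19.8 and 20.97 CPM (closed). Within each dam its closed libraries lay above its open ones, but libraries of diabetic dams were lower in both regions. Dll1, a Notch ligand, had 81.3, 27.5, 32.8 and 12.5 CPM (open) and 84.8, 46.4, 77.9 and 62.4 CPM (closed), and Cdh2, the neural cadherin, 89.9, 74.9, 72.9 and 30.9 CPM (open) and 90.1, 47.6, 108 and 107 CPM (closed), both with overlap.

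Cell cycle genes were evenly divided. Of 40 tested cell cycle genes, 20 were positive and 20 negative, with a median of 0.00. E2f1, a factor of entry into S phase, was an exception without overlap: it stood at 61.4, 35.2, 64.4 and 69.7 CPM in open and 83.7, 132, 89.6 and 101 CPM in closed tissue (log2 fold change 0.83, SE 0.28). Of 19 glycolysis and glucose uptake genes, 12 were positive with a median of 0.18. At an unadjusted edgeR p below 0.05, Ldhb, Pfkm and Slc2a3 were higher and 0 members lower, against 2.31% and 1.01% of all genes. Slc2a3, a neuronal type glucose transporter, had 37.6, 92.9, 24.8 and 54.97 CPM in open and 134, 72.8, 91.2 and 75.4 CPM in closed tissue. Pfkm, a phosphofructokinase, had 5.73, 14.3, 36.01 and 22.1 CPM (open) and 22.7, 47.3, 40.97 and 46.004 CPM (closed). Mdm4, an inhibitor of p53, was at 0 in all open libraries and at 1.63, 4.41, 0 and 3.50 CPM in closed ones, while the p53 list was divided, with 11 positive and 12 negative.

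Imprinted genes, of which only the maternal or the paternal copy is active, were lower in closed tissue, and this turned on library 13. Of 14 tested members, 11 were negative with a median of -0.63; without library 13, 8 of 14 were positive with a median of 0.34. Dlk1, an inhibitor of differentiation related to Notch ligands, stood at 6.23, 6.12, 241 and 9.75 CPM in open and 0.182, 2.89, 3.03 and 4.06 CPM in closed tissue. No closed library reached an open one, but the value of library 13 was far above the other 3, which lay within 10 CPM. Its log2 fold change was -3.67 (SE 1.12) and, without that library, -1.79. Meg3, the noncoding RNA of the same locus, had 754, 1221, 1844 and 673 CPM in open and 741, 791, 359.6 and 416 CPM in closed tissue, with a difference of -0.37 in normal and -1.70 in diabetic dams. Peg10 stood at 14.4, 9.85, 70.8 and 44.5 CPM (open) and 68.1, 38.6, 67.8 and 79.004 CPM (closed), higher in closed tissue.

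**Figure D4:**
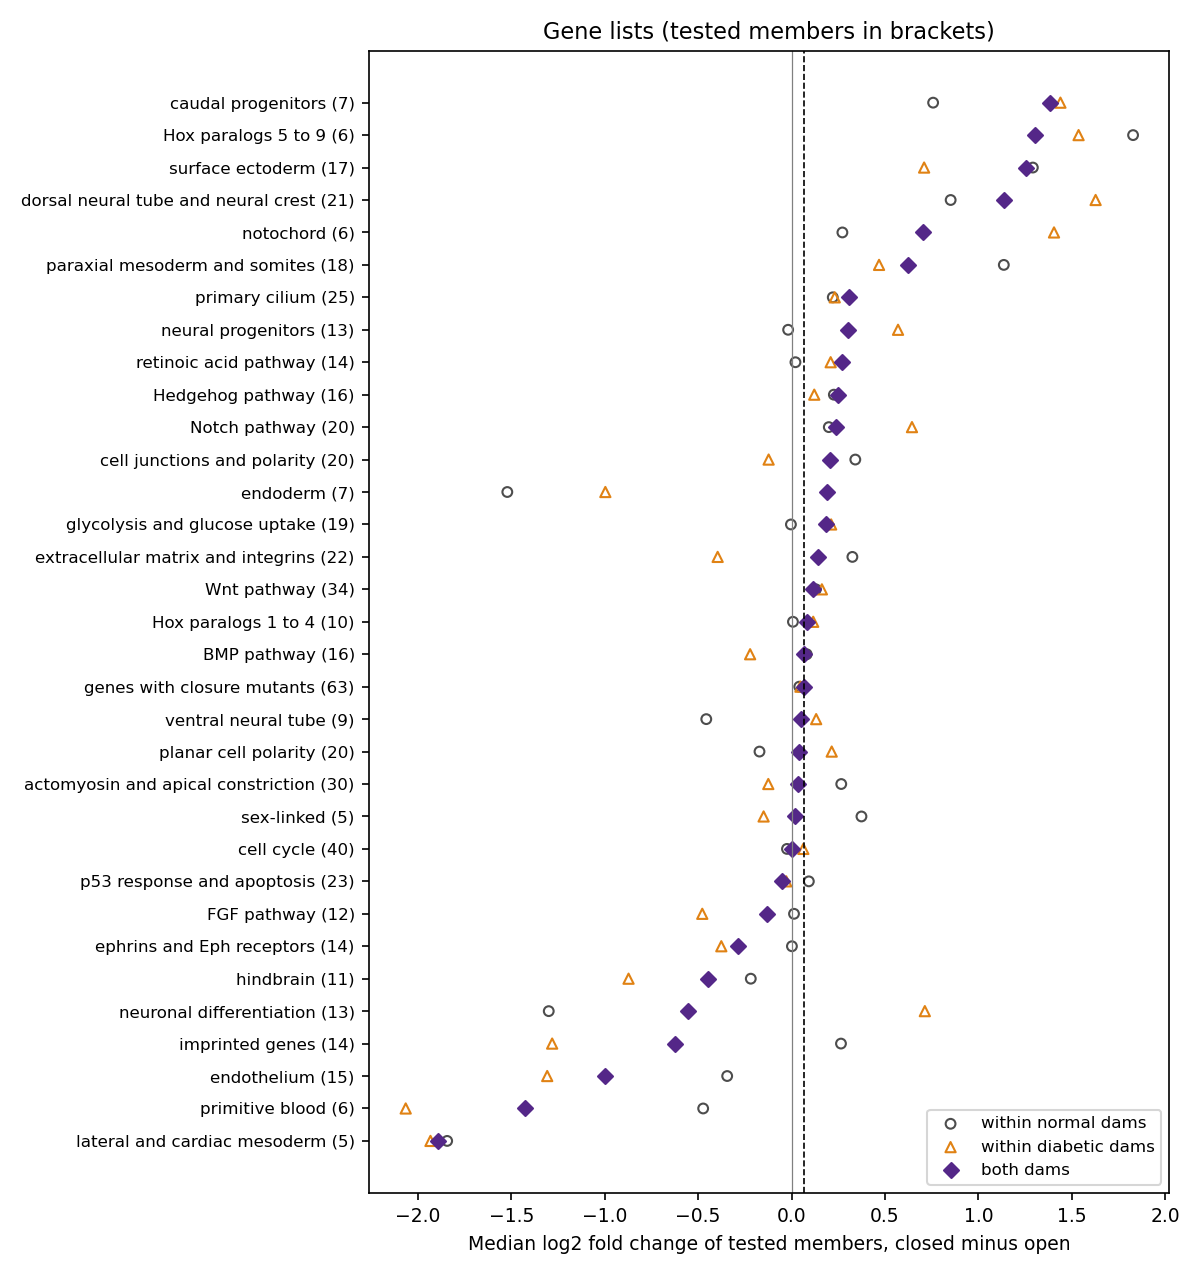
Median log2 fold change, closed minus open, of the tested members of each gene list (number in brackets), over both dams (diamonds) and within normal (circles) and diabetic dams (triangles); the dashed line is the median of all genes tested, 0.07. Dorsal genes, at 1.14, lie above it in both dams, and imprinted genes, at -0.63 over both dams, are positive in normal and negative in diabetic dams.

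The difference between regions was compared across dams, since normal and diabetic dams share no library in it. Over all 11779 genes, 51.4% had the same sign in both dams, and the correlation across genes was r = 0.007 (Spearman rho 0.031). Among 949 genes with a mean of at least 200 CPM the share was 52.7% and r was 0.192. Genes are not independent replicates, and the points share the depth and the zeros of their libraries. The rule of no overlap favours genes that are alike in both dams, and among them Gli1, Tnfrsf19, Cacna1g and Ankrd6 differed by no more than 0.27 between their within-dam log2 fold changes.

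A test of the interaction of region and dam called 0 of 11779 genes (0.0%) by edgeR; 440 (3.74%) had an unadjusted p below 0.05. The calls numbered 26 by DESeq2 and 1 by limma-voom. Most of the genes with the smallest p had the open libraries of 1 kind of dam at or near 0. Slit1, an axon guidance ligand, stood at 26.04, 30.6, 0 and 0 CPM in open and 12.9, 15.7, 4.64 and 8.67 CPM in closed tissue. Foxj1, a factor of motile cilia, had 12.9, 36.5, 0 and 0 CPM (open) and 23.6, 43.8, 6.26 and 17.6 CPM (closed). Pdcd6, a calcium-binding protein, had 528, 484, 4.06 and 28.4 CPM (open) and 399.6, 339.5, 333 and 475 CPM (closed), an interaction of 5.11 on the log2 scale (SE 0.95, unadjusted p = 0.00033 by edgeR). In these 3 genes the low values were the open libraries of diabetic dams, and the closed libraries of both dams lay closer together. Mapk7, a kinase of growth factor signals, had 0.101, 0.170, 16.1 and 19.5 CPM in open and 19.4, 13.8, 9.49 and 15.7 CPM in closed tissue. Slc35a3, a sugar nucleotide transporter, had 0, 0, 12.004 and 39.5 CPM (open) and 7.08, 11.6, 11.7 and 10.9 CPM (closed), and in both the open libraries of normal dams were the low ones. Piwil2, a Piwi protein of the germ line, had 2.71, 2.89, 65.7 and 48.98 CPM (open) and 7.27, 3.65, 3.43 and 2.66 CPM (closed), high in open tissue of diabetic dams.

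**Figure D5:**
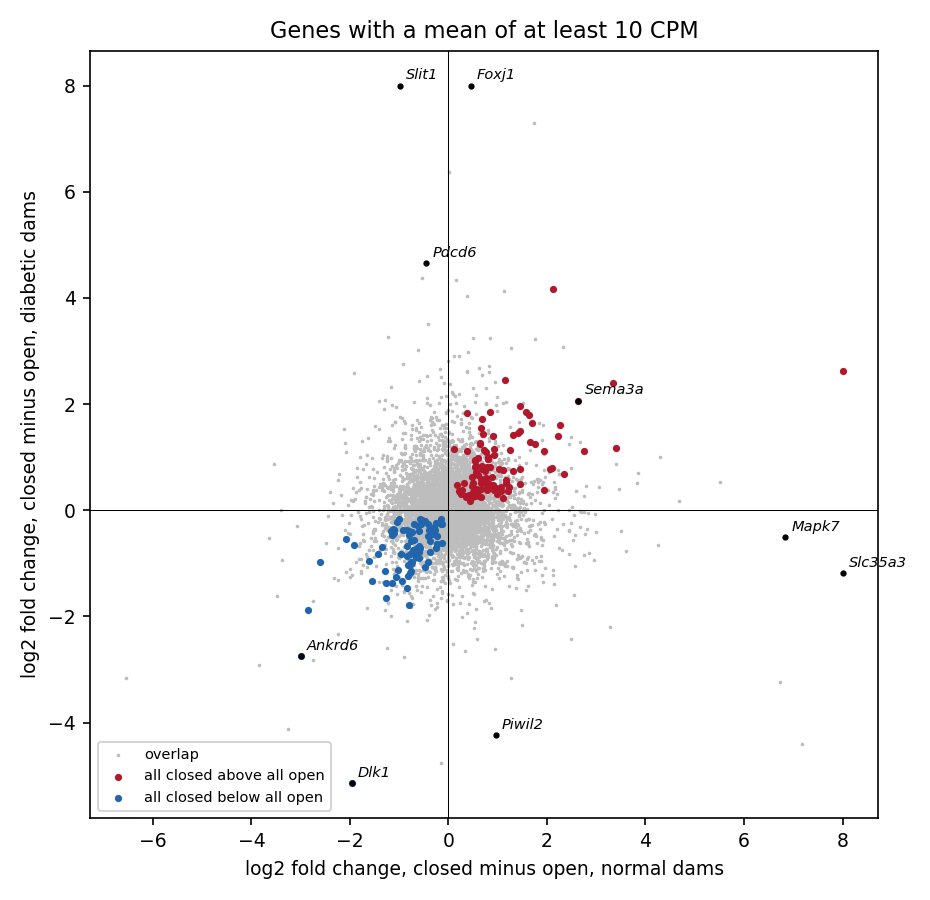
Log2 fold change, closed minus open, in normal dams (x axis) and diabetic dams (y axis) for the 6941 genes with a mean of at least 10 CPM, with values beyond 8 drawn at 8. Red genes have all closed libraries above all open ones (100 genes) and blue genes all below (82 genes); the named interaction genes lie near 1 axis, and r over all these genes is 0.055.

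The closed libraries resembled each other more than the open ones did. Across genes, the median Spearman correlation of a closed library with the other 3 closed libraries was 0.907 to 0.920. For open libraries among themselves it was 0.817 to 0.857, below their correlation with closed libraries (0.847 to 0.905). Each of the other 7 libraries correlated best with closed library 16. These values are descriptions: all libraries share the gene set, and those with fewer detected genes have more zeros.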

How the data were processed

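The 8 libraries were made with the SOLiD SAGE kit, which reads 1 tag per transcript, close to its 3′ end, per the labels' protocols. The authors deposited raw counts of tags per gene symbol, 1 file per library. Per the submitters' processing notes, mm9 was the build. Aligner, counting program, annotation, strand and the treatment of shared tags were not given in the sources used here. Close paralogs, pseudogenes and overlapping genes are therefore uncertain. No library pair of a group agreed within sampling noise (chi-square per degree of freedom 29.6 to 119). Symbols were kept as deposited, including 25 turned into dates. Groups came from the labels.

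Genes passing edgeR's filterByExpr (minimum count 10, minimum total 15) were scaled by trimmed means (TMM) and tested with edgeR 4.0.16's quasi-likelihood F test (R 4.3.3), closed against open with dam as covariate, Benjamini-Hochberg threshold 0.05. The interaction and within-dam values came from a model of 4 groups. Standard errors are those implied by the F statistic. DESeq2 1.42.0, limma-voom 3.58.1, other scaling, no filter, other models and each library left out were alternatives. On simulated counts over 10905 genes, edgeR recovered 6.67%, 41.1% and 76.8% of genes changed by 1, 2 and 4 on the log2 scale with 4 false calls, and DESeq2 16.7%, 42.9% and 81.2% with 55. The simulation used edgeR's own estimate of each gene's spread and held no dam difference, so it is not a neutral comparison of the tools. Its recovery rates hold for those settings and do not give the share of real changes that the tests find in these libraries. Intervals and floors (3 counts over a group) cover counting error only.

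Named genes were up to 12 per direction with the smallest p and up to 6 with the largest difference in both dams (no overlap, mean of at least 10 CPM), 3 per list, 3 per direction of the interaction, genes called by any tool at that level, and Sox2, Pax3, Msx1, Sox9, Gli1, Cdh1, Cdx2, Vangl2, Grhl3, Shh, Tek, Hba-x, Pdgfra, Xist and Ddx3y. Not every gene the rule gives is printed; some are not reported here. The members, the 34 gene lists and the rule were chosen with earlier results of these data known.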

Additional observations from a re-analysis of the deposited data

Results flagged for a closer look

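Among 182 sets of 4 libraries examined (90 named genes and the library totals, in each region), 27 held a library far from the other 3 by Dixon's criterion at 95%. Chance alone flags about 1 in 20 sets when values follow a Gaussian distribution. That rate is no baseline here, because the criterion was applied to CPM values, which need not follow it. A set with a count in only 1 library is always flagged, as were Trex1 in open and Hbb-bh1 in closed tissue. The named genes were also chosen with earlier results of these data known. Whether 27 exceeds chance was therefore not tested.

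In open tissue, library 13 accounted for 10 of them. It was high in Pdgfra (466 CPM, 30.5 to 65.0 CPM in the other open libraries), Dlk1 (241 CPM, 6.12 to 9.75), Pax1 (242 CPM, 0.170 to 13.5) and Sox7 (139 CPM, 20.2 to 30.9). It was also high in Gata4 (86.0 CPM, 0 to 0.170), Gata6 (54.3 CPM, 0 to 0.804), Prickle1 (55.8 CPM, 10.6 to 17.4), Cdh1 (42.5 CPM, 15.6 to 19.7), Perp (4.00 CPM, 0 to 0.117) and Trex1 (6.24 CPM, 0 elsewhere). Library 14 was high in Il17rd (110.2 CPM, 1.53 to 10.2) and D1Ertd622e (116 CPM, 53.8 to 63.2). Library 9 was high in Mtmr1 (43.5 CPM, 21.6 to 25.1), Sec11a (317 CPM, 264 to 268) and LOC100502877 (36.8 CPM, 12.1 to 15.8). Library 10 was high in Vangl2 (28.5 CPM, 6.54 to 9.53) and Xist (289 CPM, 0.101 to 2.94) and low in Btf3l4 (14.8 CPM, 27.7 to 29.5).

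In closed tissue, library 15 was high in Hoxb9 (63.0 CPM, 0.363 to 1.68 in the other closed libraries), Hoxb8 (33.5 CPM, 0.545 to 1.82), Fzd10 (207 CPM, 112 to 127), Ankrd6 (7.27 CPM, 2.13 to 2.52) and Gata4 (4.44 CPM, 0 to 0.559). Library 16 was high in Hba-x (204 CPM, 0.304 to 4.44) and Hbb-bh1 (5.17 CPM, 0 elsewhere). Library 12 was high in Xist (305 CPM, 1.61 to 4.36), and library 11 in Sox9 (117 CPM, 69.3 to 77.1).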

How the results depend on the processing

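The edgeR count of 0 genes for region held under relative log expression scaling, library totals only, no dam term and a model of 4 groups, and in limma-voom. DESeq2 called 9, and edgeR without the low-count filter 29, of which 28 had been tested and 9 do not overlap between regions. Leaving out 1 library gave 0 to 3: without library 16 Hba-x, LOC100502877 and Sema3a, without library 9 Cul1. The interaction count of 0 became 26 in DESeq2, 1 in limma-voom, 23 without the filter and 0 to 9 with 1 library left out, the most without library 14. Non-overlapping genes numbered 199 to 238 higher and 113 to 126 lower under other scaling or no filter. With 1 library left out they numbered 373 to 590 higher and 180 to 326 lower; a comparison of 7 libraries is the easier one to pass, and the filter then keeps more genes. Where 1 library remains in a group, it is assumed to vary like the others.

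Log2 fold changes changed sign as follows. Without the dam term, Vangl2 stood at -0.0106, Pdgfra at -0.39, Xist at 0.10, Ddx3y at -0.11, Slit1 at -0.43 and Slc35a3 at -0.32. In limma-voom Xist stood at 3.83 and Ddx3y at -0.55, and with library totals only Ddx3y stood at -0.00541. With 1 library left out the ranges were -0.0121 to 1.15 for Sox2, -0.18 to 0.69 for Vangl2, -0.26 to 1.66 for Shh, -0.11 to 1.24 for Pdgfra, -1.98 to 1.72 for Xist and -1.81 to 1.09 for Ddx3y. The other named genes kept their sign in every alternative run. Of 495 alternative list medians, 61 changed sign, in 15 of 33 lists. With 1 library left out and the filter applied anew, the dorsal median was 1.21 to 1.48 over 21 or 22 members; over the 21 members tested with all libraries it was 1.14 without library 13. Apart from the smaller comparison named above, the cause was not tested. No paired analysis was run, because the labels do not state whether open and closed libraries came from the same embryos. Libraries were treated as unpaired, and what a pairing would change was not tested. Depth limits genes of few counts: a level of 1 CPM is about 5 to 17 counts here.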

Other observations

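Gapdh and Eno1, both enzymes of glycolysis, and Cdk4, a kinase of the G1 phase, stood at 0 in all 8 libraries, while 19 of 21 glycolysis genes had counts. Their predicted tags are shown because they bear on what was counted.
Gapdh: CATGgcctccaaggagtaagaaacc
Eno1: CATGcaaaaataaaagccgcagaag
Cdk4: CATGtggagcgttggctgtatcttt
The predicted Gapdh tag also occurs in 7 other genes of GENCODE M21 and the Eno1 tag in 1, whereas the Cdk4 tag occurs in no other. On GRCm38 the Gapdh tag is at chr6:125162026-125162050 on the minus strand, across the end of the coding sequence. The Eno1 tag is at chr4:150248845-150248869 on the plus strand, in the 3′ UTR. The Cdk4 tag is at chr10:127065220-127065244 on the plus strand, in the coding sequence. Over 17015 genes whose predicted tag was in no other gene, 30.7% had no count. The share was 66.7% of 969 genes that shared it with 1 to 4 others and 81.5% of 584 that shared it with at least 5.

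Lists not described above are given as counts and medians of log2 fold changes, closed minus open, beside 55.5% positive and a median of 0.07 over all genes tested. The ranges are those with 1 library left out and the filter applied anew. The retinoic acid list had 9 of 14 tested members positive (median 0.27, 0.05 to 0.91), the Notch list 15 of 20 (0.24, 0.16 to 0.48), primary cilium genes 15 of 25 (0.31, 0.01 to 0.38) and extracellular matrix genes 14 of 22 (0.14, -0.01 to 0.40). Ephrins and Eph receptors were positive in 4 of 14 (-0.29, -0.34 to -0.19), ventral neural tube genes in 5 of 9 (0.05, -0.23 to 0.39) and notochord genes in 5 of 6 (0.70, 0.44 to 1.26). Neuronal differentiation genes were positive in 6 of 13 (-0.55, -0.97 to 0.30): the median was positive without library 10 or 12, in limma-voom (0.37) and within diabetic dams (0.71). Endoderm genes were positive in 4 of 7 (0.19), but their median was negative within normal (-1.52) and diabetic dams (-0.996) and with any 1 library left out (-3.54 to -0.59). Elavl4, an RNA-binding protein of young neurons, stood at 1.41, 7.47, 0 and 0 CPM in open and 9.81, 10.5, 9.69 and 13.6 CPM in closed tissue, without overlap.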
